A study of Mus musculus with 267 samples.

Results

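Mrc1 (ENSMUSG00000026712.3) lies on the plus strand of mouse chromosome 2 at chr2:14229392-14332057 (mm10, GENCODE vM21) and encodes the mannose receptor CD206. The window described here held every region, site or peak with its centre within 50 kb of the Mrc1 start or in the gene body. It took 80 of 383581 rows of histone mark and RNA polymerase II (Pol II) regions, 7 of 30675 EGR2 sites of the time course, 2 of 4677 sites in each table of the Egr2 genotypes, and 680 of 1958714 peaks in 54 factor peak lists. Rows whose centres lay within 500 bp of each other were treated as 1 element, which gave 24 elements, each named by its distance from the Mrc1 start. Elements from -44.9 to -18.5 kb lay in introns of the neighbouring gene Tmem236 (chr2:14174523-14221993), the -0.2 kb element spanned the Mrc1 start, and elements from +2.2 to +93.9 kb lay in Mrc1 introns. In the C57 time course the outermost regions inside the window lay at -43.8 and +93.9 kb, and the nearest ones outside it at -63.6 kb (H3K27ac 113.98 and 250.28 normalized tags in basal libraries) and at +106.6 kb, past the 3' end of the gene (Pol II 39.31 to 71.82 in basal libraries and 82.09 to 459.18 at 24 h of IL-4).

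The cells were bone marrow-derived macrophages (BMDMs), grown for 7 days with macrophage colony-stimulating factor from healthy female mice aged 8 to 12 weeks. NOD/ShiLtJ (NOD), SPRET/EiJ (SPRET), BALB/cJ (BALB), C57BL/6J (C57) and PWK/PhJ (PWK) mice gave cells without stimulation (basal) and after 24 h of IL-4 at 20 ng/ml, with 1 h and 6 h added in C57. Macrophages of Egr2flfl mice, in which both Egr2 alleles carry loxP sites, were compared with those of LyzMCreEgr2flfl mice, which carry the same alleles and a Cre recombinase expressed from the myeloid gene LyzM; neither was a wild type. Each value is the number of ChIP-seq tags in a region scaled to 10000000 tags of the library, called normalized tags below, and most groups held 2 libraries, with 1 to 4 for Pol II. Library totals ran from 4691644 to 29050468 tags, so that 1 normalized tag stood for 0.469 to 2.905 reads. In bulk cultures, a mark in more of the cells and more of the mark in each cell cannot be told apart. The start regions of all 6 macrophage marker genes checked were in the C57 tables, with 2660.8 and 2705.33 summed normalized tags of H3K27ac in the basal libraries, and the T cell (3 genes) and mast cell (2 genes) markers had no region. B cell markers, with a region at 2 of 3 genes, summed to 85.48 and 94.83.

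CD206 is a C-type lectin of the macrophage surface that binds mannose-ended sugars and takes their carriers up by endocytosis, and it is widely used as a marker of macrophages exposed to IL-4. IL-4 binds its receptor on the cell surface and leads to phosphorylation of STAT6, which enters the nucleus and binds DNA. PU1 and C/EBPb (CEBPb) are factors that mark macrophage regulatory DNA, PPARg is a nuclear receptor and EGR2 a zinc finger factor, and genes of both are themselves induced by IL-4. H3K27ac marks active promoters and enhancers, H3K4me3 promoters and H3K4me2 both, while Pol II signal within a gene marks transcribing polymerase.

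Mrc1 also hosts a microRNA gene, Mir511, at chr2:14261003-14261081 in one of its introns, 31.6 kb from the start and upstream of the +32.9 kb region. Pol II in that stretch cannot be assigned to one gene or the other. Its 3p arm (chr2:14261051-14261072, RefSeq, GRCm38.p6) is shown with the seed in capitals.
mmu-miR-511-3p: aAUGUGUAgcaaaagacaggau

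The sequences below are those of the elements on which the results turn, and they were chosen after the values were seen. They are the plus strand of the reference genome (GRCm38.p6, the mm10 assembly, of C57BL/6J), which is also the strand of Mrc1, and no strain's own bases are shown. Capitals mark matches to the motifs searched on both strands: TTCNNNNGAA for STAT6 (its own reverse complement), AGGAAGT for PU1, GTGGGNG for EGR2, TTGCNNAA for CEBPb and, for PPARg, AGGNCA repeated after 1 base of any kind. The first is the RefSeq promoter up to the base before the Mrc1 start (chr2:14229164-14229391), shown because Pol II was measured over it in every strain. It held 1 PU1 match, on the minus strand at bases 40 to 46.
Mrc1 promoter: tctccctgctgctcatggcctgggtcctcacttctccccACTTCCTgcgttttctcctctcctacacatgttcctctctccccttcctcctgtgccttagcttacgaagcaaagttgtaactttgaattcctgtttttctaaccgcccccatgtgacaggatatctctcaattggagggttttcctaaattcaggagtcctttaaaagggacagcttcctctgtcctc
The next is the centre of the +2.2 kb region (chr2:14231480-14231779), where Pol II was called in more comparisons than at any other element of the window. It held 1 STAT6 match at bases 144 to 153 and no other match.
+2.2 kb: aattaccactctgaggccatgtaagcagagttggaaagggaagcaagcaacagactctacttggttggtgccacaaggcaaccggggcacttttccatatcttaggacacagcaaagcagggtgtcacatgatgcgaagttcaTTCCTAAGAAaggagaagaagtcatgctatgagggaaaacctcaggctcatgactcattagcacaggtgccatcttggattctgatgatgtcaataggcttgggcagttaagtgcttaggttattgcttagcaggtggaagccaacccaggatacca
The +46.6 kb region (chr2:14275894-14276193), with the called H3K27ac change in SPRET, held 1 STAT6 match at bases 105 to 114 and no other match.
+46.6 kb: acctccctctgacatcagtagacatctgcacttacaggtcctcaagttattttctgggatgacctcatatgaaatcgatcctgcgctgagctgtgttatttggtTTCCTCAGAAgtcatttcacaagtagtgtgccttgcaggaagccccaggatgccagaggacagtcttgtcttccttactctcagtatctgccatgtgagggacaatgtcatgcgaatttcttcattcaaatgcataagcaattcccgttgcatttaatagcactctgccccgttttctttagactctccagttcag
The +20.7 kb region (chr2:14249842-14250141), with the called fall of H3K27ac at 1 h in C57, held PU1 matches at bases 122 to 128 (plus strand) and 171 to 177 (minus), an EGR2 match at 158 to 164 (minus) and a CEBPb match at 177 to 184 (minus) that shares base 177 with the second PU1 match.
+20.7 kb: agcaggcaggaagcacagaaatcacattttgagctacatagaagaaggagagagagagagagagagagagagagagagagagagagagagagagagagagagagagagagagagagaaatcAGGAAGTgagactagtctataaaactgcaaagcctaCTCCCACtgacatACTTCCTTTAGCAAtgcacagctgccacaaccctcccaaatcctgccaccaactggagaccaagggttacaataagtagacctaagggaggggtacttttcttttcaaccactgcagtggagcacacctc
The last pair are the sites with values in both Egr2 genotypes. The -43.8 kb site (chr2:14185420-14185719) held an EGR2 match at bases 133 to 139 (minus strand) and a PU1 match at 187 to 193 (plus), and the -37.1 kb site (chr2:14192074-14192373) held 1 CEBPb match at bases 275 to 282 (minus).
-43.8 kb: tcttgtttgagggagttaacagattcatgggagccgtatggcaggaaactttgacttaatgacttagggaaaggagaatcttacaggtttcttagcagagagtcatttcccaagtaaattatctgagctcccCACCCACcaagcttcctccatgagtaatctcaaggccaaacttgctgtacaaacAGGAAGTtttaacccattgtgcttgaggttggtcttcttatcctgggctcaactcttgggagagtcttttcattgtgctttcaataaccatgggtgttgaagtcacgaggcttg
-37.1 kb: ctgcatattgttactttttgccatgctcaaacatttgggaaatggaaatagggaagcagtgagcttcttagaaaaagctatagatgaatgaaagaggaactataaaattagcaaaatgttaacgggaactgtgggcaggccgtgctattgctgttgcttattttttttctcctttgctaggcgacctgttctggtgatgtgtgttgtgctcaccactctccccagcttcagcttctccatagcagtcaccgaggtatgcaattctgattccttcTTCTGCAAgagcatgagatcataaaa
Of 77943 regions of the same length, 8.767% held the STAT6 letters, 22.259% those of PU1, 28.869% those of EGR2, 15.882% those of CEBPb and 0.553% those of PPARg. Among 32851 RefSeq promoters the shares were 6.953%, 9.351%, 31.558%, 10.797% and 0.381%. A match is a description of the letters and not a measured site.

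The time course in C57 BMDMs asked how soon and for how long IL-4 changed the locus. Pol II rose within the Mrc1 body at each time, with calls at 3 of 20 regions at 1 h, 3 at 6 h and 1 at 24 h, all of them higher with IL-4. Over all 77955 regions 0.0911%, 0.566% and 0.677% were called at the 3 times (limma on log2 of normalized tags plus 1, Benjamini-Hochberg adjusted p under 0.05). The median log2 fold in the window was 2.96, 1.93 and 1.67, against -0.18, -0.02 and -0.02 over all regions. The 3 times share the basal libraries, and the 1 h group was 1 library, whose spread the fit takes to be like that of the other groups.

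At the +2.2 kb region (chr2:14231129-14232129) Pol II was 48.05, 85.86, 109.87 and 74.93 normalized tags in the 4 basal libraries, 1149.55 in the 1 h library, 743.63 and 306.65 at 6 h, and 371.49, 484.21 and 189.83 at 24 h. Every library with IL-4 lay above every basal one. The log2 fold was 3.89 at 1 h (SE 0.61, adjusted p = 0.0286), 2.63 at 6 h (SE 0.47, adjusted p = 0.0185) and 2.07 at 24 h (SE 0.42, adjusted p = 0.0289), and it was the 1 region called at all 3 times. These calls rest on few libraries. At 6 h the call ended without either 6 h library (log2 fold 1.99 and 3.27) or without basal library 4, at 24 h it ended without 24 h library 1 (1.98) or 2 (1.78) or basal library 2, 3 or 4, and at 1 h without 24 h library 1 or basal library 2, 3 or 4 (3.88 to 4.07).

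The other called regions lay deeper in the gene. At +22.9 kb (chr2:14251790-14252790) Pol II was 8.11, 26.48, 41.27 and 21.26 in the basal libraries, 329.02 at 1 h, 194.39 and 106.77 at 6 h, and 106.04, 158.83 and 44.89 at 24 h. The log2 fold was 3.9 at 1 h (adjusted p = 0.0498) and 2.72 at 6 h (adjusted p = 0.036), and the 24 h libraries also lay above the basal ones. At +93.9 kb (chr2:14322779-14323779), near the 3' end of the gene, the basal libraries held 18.72, 48.15, 35.37 and 49.62, the 1 h library 402.14 (log2 fold 3.46, adjusted p = 0.0498), the 6 h libraries 225.06 and 131.14 and the 24 h libraries 100.04, 166.56 and 46.17. Here the lowest 24 h library lay below the highest basal ones. At +46.6 kb (chr2:14275543-14276543) the basal libraries held 4.99, 11.23, 24.65 and 12.15, the 6 h libraries 81.59 and 86.29 (log2 fold 2.76, adjusted p = 0.0494) and the 24 h libraries 64.69, 121.96 and 19.24. The 1 h library held 159.43, with an adjusted p of 0.0869 by limma, 0.00631 by edgeR and 8.06e-05 by DESeq2. The calls at these 3 regions lie close to the threshold and each was lost when single libraries were left out, +22.9 kb at 6 h without either 6 h library (log2 fold 2.29 and 3.15), 24 h library 1 or basal library 2 or 4, and +46.6 kb at 6 h without either 6 h library (2.8 and 2.72), the 1 h library, 24 h library 1 or basal library 2, 3 or 4. At 1 h the calls at +22.9 and +93.9 kb were lost without any one of 24 h libraries 1 and 2, the 6 h libraries and basal libraries 2, 3 and 4, with log2 folds of 3.9 to 4.22 and 3.46 to 3.62.

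At the start itself, the -0.2 kb region (chr2:14228731-14229731), Pol II was 112.31, 98.7, 205.8 and 116.45 in the basal libraries, 544.31 at 1 h, 428.76 and 364.17 at 6 h, and 321.47, 561.58 and 179.57 at 24 h. The 1 h and 6 h libraries lay above the basal ones, and 1 of the 3 at 24 h did not. The adjusted p was 0.179, 0.13 and 0.175, so the start region passed limma at none of the 3 times, with log2 folds of 2.08, 1.62 and 1.31. The call depended on the tool, since DESeq2 on recovered reads called it at each time (adjusted p = 0.00435, 0.0115 and 0.0131) and edgeR at 1 h (adjusted p = 0.0355).

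Averaged over the 12 regions in the body from +2.2 to +93.9 kb, Pol II was 16.9, 34.102, 48.412 and 31.052 in the basal libraries, 320.391 at 1 h, 192.432 and 116.801 at 6 h, and 108.432, 197.697 and 50.984 at 24 h. All libraries with IL-4 were above all basal ones on this mean, by 50.984 against 48.412 at the closest. The 7 regions upstream in Tmem236 averaged 6.306 to 13.164 in basal libraries and 12.643 to 21.359 with IL-4, below the body in each library. The third 24 h library, with 7796479 tags and 26.937% of them inside regions, was the lowest of its group at the regions named above, and the 1 h library had 26.677% of its tags inside regions, the lowest share among the Pol II libraries of this time course. The part of either in the result was not tested. Libraries of the same number were taken as paired between basal and 24 h, with correlations of their deviations of 0.109, 0.226 and 0.192. Basal library 1 correlated more with a 24 h library of another number, so this pairing is uncertain. With a replicate block for it 10 regions of the window were called at 24 h. The share of all regions called with the block is not given, so this count alone is not a result about Mrc1. The 6 h and 1 h libraries were not shown to be paired with the basal ones.

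**Figure D1:**
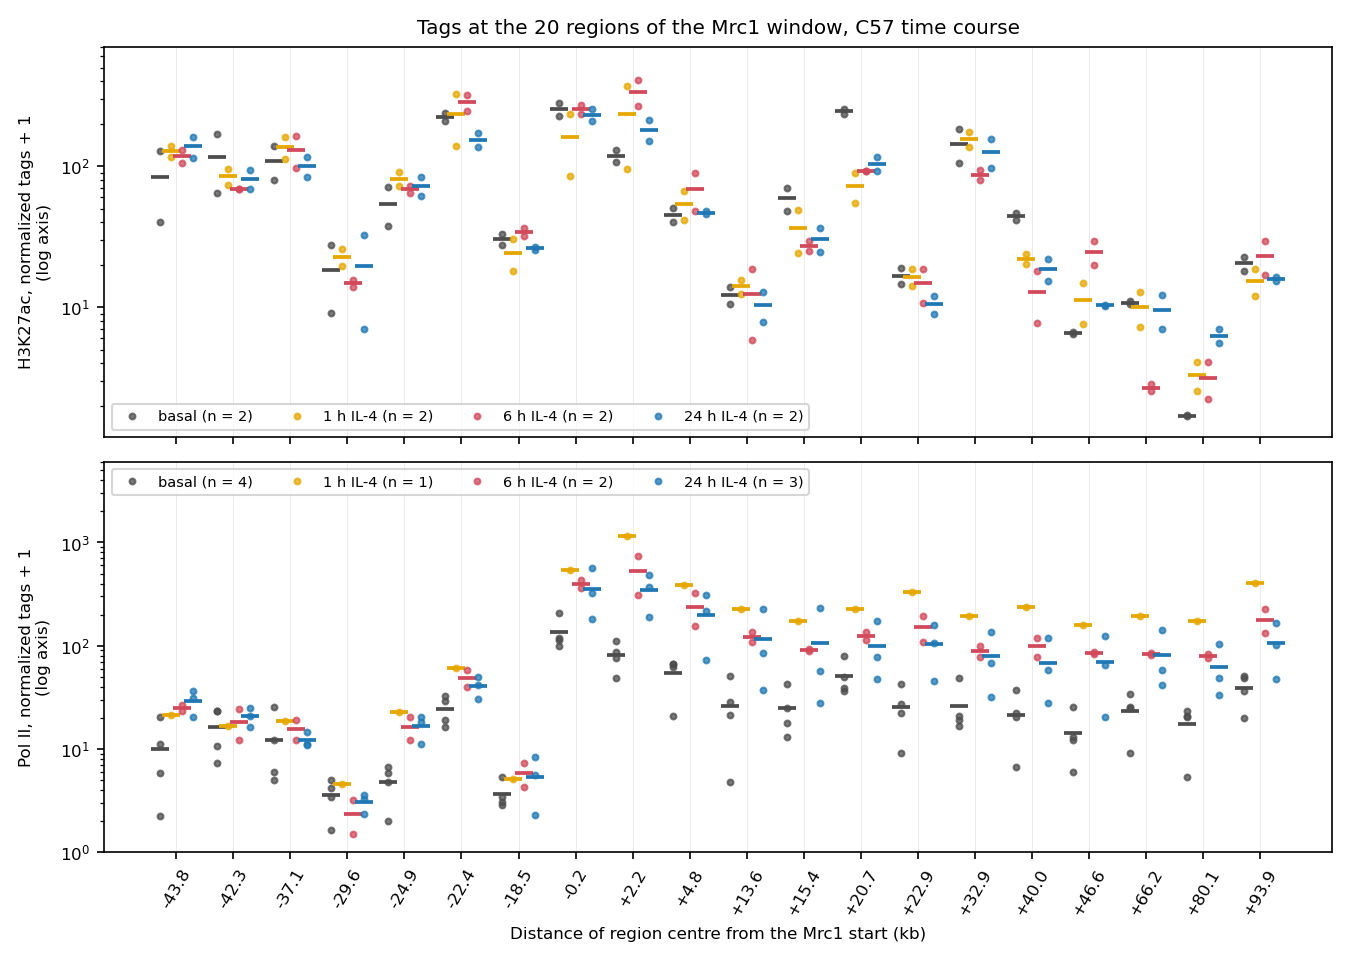
Normalized tags plus 1 (log axis) of H3K27ac (top) and Pol II (bottom) at the 20 regions of the Mrc1 window in C57 macrophages, by distance of the region centre from the Mrc1 start in kb. Points are libraries coloured by time with IL-4 and dashes are group means; at +2.2 kb the Pol II libraries with IL-4, from 189.83 to 1149.55 normalized tags, all lie above the basal ones, which reach 109.87.

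H3K27ac had fewer calls over the same times. Of the 20 regions, 1 was called at 1 h, 0 at 6 h and 0 at 24 h, against 9.72%, 5.13% and 1.45% of all regions. At an unadjusted p under 0.05 the window held 1, 5 and 3 of 20 regions, against 24398, 15739 and 13363 of all 77955. In the window edgeR called 0, 2 and 0 regions and DESeq2 1, 3 and 0, with no shares of all regions given for these tools. The region that limma called had fallen. At +20.7 kb (chr2:14249520-14250520) H3K27ac was 254.41 and 234.59 in the basal libraries, 88.12 and 53.7 at 1 h (log2 fold -1.81, SE 0.54, adjusted p = 0.0422), 90.87 and 91.28 at 6 h (log2 fold -1.41, adjusted p = 0.138) and 91.67 and 114.2 at 24 h (log2 fold -1.25, adjusted p = 0.246). No library with IL-4 reached 115 normalized tags and no basal library was below 234.

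The share of tags that lay inside regions moved with this fall, at 69.717% and 63.768% in the basal libraries, 43.953% and 20.541% at 1 h, 51.029% and 50.246% at 6 h and 46.442% and 41.234% at 24 h. The median log2 fold over all regions was -0.63 at 1 h. Scaling to the median ratio of the regions, in place of library totals, gave a log2 fold of -1.01 at 1 h and the call was lost, as it was with edgeR and DESeq2 (-1.02 each) and without 1 h library 2 (-1.46), either basal library (-1.75 and -1.87) or any 6 h or 24 h library, which share the fit. Pol II at this same region was 48.67, 37.71, 77.71 and 35.44 in basal libraries and 223.41 at 1 h (log2 fold 2.21, adjusted p = 0.176 by limma, 0.0373 by edgeR and 0.00578 by DESeq2), so at +20.7 kb the time with the least H3K27ac was not one of less Pol II.

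At +2.2 kb H3K27ac was 105.16 and 129.78 in basal libraries, 371.05 and 95.01 at 1 h, 404.3 and 267.76 at 6 h (log2 fold 1.49, adjusted p = 0.189), and 211.36 and 148.98 at 24 h. The groups at 6 h and 24 h did not overlap the basal group, and none passed limma. The 6 h difference was called by DESeq2 (log2 fold 1.72, adjusted p = 0.0104), by edgeR (1.72, adjusted p = 0.0493) and under median-ratio scaling (1.69, adjusted p = 0.0482), and DESeq2 also called that at 1 h (1.61, adjusted p = 0.0253), where the libraries overlap the basal ones. At the start region the basal libraries averaged 252.0, with 159.84 at 1 h, 253.45 at 6 h and 230.55 at 24 h, and no change was called. The direction of these differences depended on the scaling, since the 24 h log2 fold of -0.13 became 0.1883 under median-ratio scaling. The +46.6 kb region was low, at 28.49 and 18.86 at 6 h in the time course (log2 fold 1.88, adjusted p = 0.0729), a difference that edgeR (adjusted p = 0.0431) and DESeq2 (adjusted p = 0.0298) called.

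Across the 5 strains the comparison of 24 h with basal asked whether IL-4 changed Mrc1 alike in each genetic background. PWK had calls of Pol II at 4 of 11 regions (1.72% of all regions) and C57 at 1 of 11 (0.319%), while BALB had 0 of 15 (0.707%), NOD 0 of 15 (0%) and SPRET 0 of 8 (1.05%). The calls were all higher with IL-4. At an unadjusted p under 0.05 the window held 6 regions each in C57, BALB and NOD, 8 in PWK and 1 in SPRET. Over all regions the counts were 5977 of 67742 in C57, 4114 of 54022 in BALB and 5271 of 68932 in NOD. They were 7236 of 60175 in PWK and 7101 of 54755 in SPRET. With no call in the whole NOD table, its 0 says nothing about Mrc1. In BALB edgeR and DESeq2 each called 1 region of the window, in NOD edgeR called 0 and DESeq2 2, and in SPRET both called 0. Shares of all regions called by these tools are not given, so the counts alone are not a result about Mrc1. The median log2 fold in the window was 1.29 for C57, 1.14 for BALB, 1.38 for NOD, 1.85 for PWK and 0.28 for SPRET, against -0.03, 0.32, -0.02, -0.03 and -0.10 over all regions. The 24 h libraries all lay above the basal ones at 2 of 11 C57 regions, 12 of 15 BALB regions, 10 of 15 NOD regions, 8 of 11 PWK regions and 0 of 8 SPRET regions, and at no region were they all below. The share of all regions with such separation was not counted. Separation also arises by chance with so few libraries, so these counts alone are not a result about Mrc1.

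At its 4 called regions PWK had the lowest mean of basal Pol II and the largest log2 fold among the strains with a region there, a description across tables that was not tested. At the start it was 23.28, 39.17 and 38.64 in basal libraries and 161.78, 144.38 and 129.99 at 24 h, with no overlap (log2 fold 2.11, SE 0.28, adjusted p = 0.00174). At +2.2 kb it was 7.05, 4.9 and 8.33 against 153.15, 70.04 and 106.9 (log2 fold 3.79, SE 0.36, adjusted p = 0.000136), the lowest adjusted p among the window's Pol II regions in the strains. The +4.8 kb region went from 7.05, 1.4 and 3.79 to 120.8, 34.48 and 33.35 (log2 fold 3.55, SE 0.55, adjusted p = 0.00474), and the +20.7 kb region from 4.94, 9.79 and 11.36 to 35.95, 31.25 and 36.77 (log2 fold 1.94, SE 0.39, adjusted p = 0.0191). With 1 of the 6 libraries left out, 2 to 4 of these regions were called, and +2.2 kb was called each time. The +4.8 kb call was lost without 24 h library 2 (3.84), basal library 2 (3.09) or basal library 3 (3.59), and the +20.7 kb call without any library but basal library 1 (1.9 to 2.15). The libraries of PWK were paired by number, and 7 regions were called with a replicate block. No share of all regions stands beside this count, so alone it is not a result about Mrc1.

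In C57 the strain table and the time course share their Pol II libraries. At +2.2 kb the strain table held 46.8, 89.07, 115.76 and 77.97 in basal libraries and 380.82, 491.04 and 194.96 at 24 h (log2 fold 2.07, SE 0.39, adjusted p = 0.036), and this call ended without 24 h library 1 (1.97) or 2 (1.78) or basal library 2 (2.13), 3 (2.25) or 4 (2.06). At the start the values were 115.43, 97.1, 198.3 and 113.41 against 320.13, 532.0 and 173.16, which overlap (log2 fold 1.29, SE 0.39, adjusted p = 0.214 by limma and 0.0175 by DESeq2). A replicate block left the count in C57 at 1 region, with no share of all regions given.

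BALB and NOD had higher 24 h values with wide spread. At +2.2 kb, BALB held 77.93, 118.03 and 43.76 in basal libraries and 251.51 and 404.67 at 24 h (log2 fold 2.09, SE 0.66, adjusted p = 0.12). NOD held 131.06 and 121.19 against 784.14 and 263.83 (log2 fold 1.84, SE 0.48, adjusted p = 0.391). In both strains the 24 h libraries lay above the basal ones, and neither passed limma. The +2.2 kb region was called in BALB by edgeR (adjusted p = 0.0423) and DESeq2 (adjusted p = 0.0102), and in NOD by DESeq2 (adjusted p = 0.00288). At the start, BALB had 96.45, 220.04 and 62.35 against 326.11 and 453.08 (log2 fold 1.8, adjusted p = 0.275), where the median of all BALB regions stood at 0.32. NOD had 179.07 and 125.3 against 671.63 and 228.75 (log2 fold 1.38, adjusted p = 0.547). The upstream region at -43.8 kb in BALB, with 5.75, 22.54 and 7.66 against 36.23 and 67.45, had a log2 fold of 2.18 (SE 0.65, adjusted p = 0.0817).

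SPRET stood apart in its levels. Pol II at the start was 293.19, 271.81 and 284.95 in basal libraries and 339.72, 376.75 and 239.17 at 24 h, which overlap (log2 fold 0.14, SE 0.22, adjusted p = 0.852). Its basal level lay above that of every basal library of the other 4 strains, of which PWK was lowest and those of C57, BALB and NOD overlapped each other. These levels come from strain tables made separately and were not tested across them, and the difference in fold between strains was not tested either. The SPRET table held no region within 500 bp of the +2.2 kb element. At +32.9 kb its Pol II was 44.51, 32.74 and 50.32 against 85.35, 68.56 and 47.09 (log2 fold 0.62, adjusted p = 0.377).

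**Figure D2:**
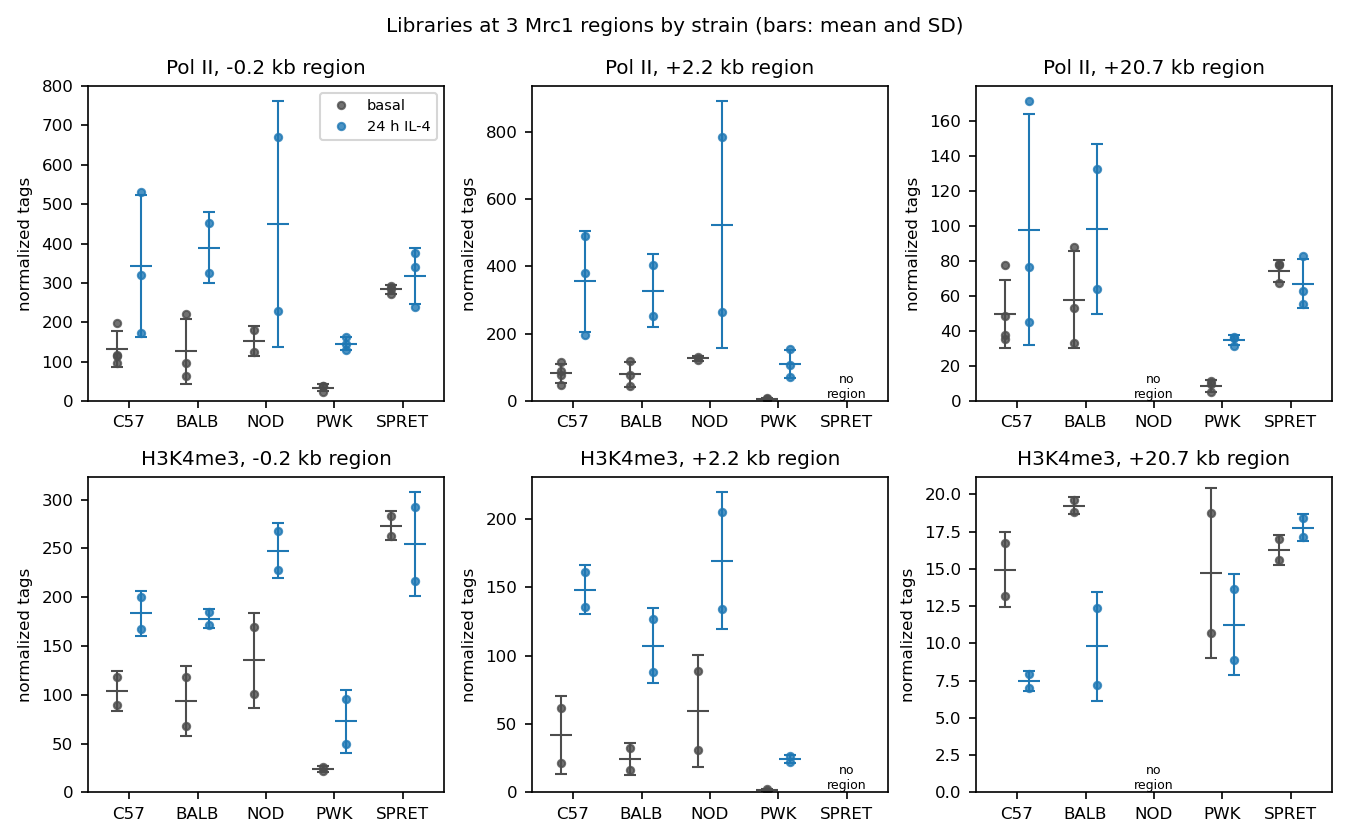
Normalized tags of Pol II (top) and H3K4me3 (bottom) at 3 Mrc1 regions in each strain, basal (grey) and 24 h IL-4 (blue), with points for libraries and bars for the mean and SD. Basal Pol II at the start is highest in SPRET (271.81 to 293.19) and lowest in PWK (23.28 to 39.17), and in PWK the 24 h libraries lie above the basal ones at all 3 regions.

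H3K27ac in the strains was called at 1 of 60 regions, in SPRET. SPRET had 1 of 8 regions called (1.19% of all regions), against 0 of 11 for C57 (0%, with 14904 regions at an unadjusted p under 0.05), 0 of 15 for BALB (2.26%), 0 of 15 for NOD (0.0566%) and 0 of 11 for PWK (0.535%). With no H3K27ac call in the whole C57 table, the 0 there says nothing about Mrc1. At an unadjusted p under 0.05 the window held 1 region each in C57, NOD and SPRET, 4 in PWK and 0 in BALB. Over all regions the counts were 14904 of 67742 in C57, 8578 of 68932 in NOD and 6679 of 54755 in SPRET. They were 6363 of 60175 in PWK and 6415 of 54022 in BALB. In the window edgeR called 0 regions in C57, BALB, NOD and PWK, and DESeq2 called 0, 1, 0 and 1. Their shares of all regions are not given. The window's median log2 fold was -0.12 for C57, 0.16 for BALB, -0.05 for NOD, 0.96 for PWK and 0.20 for SPRET, against -0.28, -0.31, -0.20, -0.18 and -0.09 over all regions. The region called in SPRET was the weak +46.6 kb region, with 9.4 and 3.95 normalized tags in basal libraries and 46.73 and 24.77 at 24 h (log2 fold 2.29, SE 0.54, adjusted p = 0.0476). The call was lost when any 1 of its 4 libraries was left out (log2 fold 1.75 to 2.82) and under median-ratio scaling. In C57 the same region held 5.43 and 5.7 against 9.34 and 9.19.

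At +2.2 kb both 24 h libraries of H3K27ac lay above both basal ones in the 4 strains with a region there. It was 105.16 and 134.05 against 222.39 and 164.08 in C57 (log2 fold 0.68, SE 0.36, adjusted p = 0.308), and 60.26 and 94.73 against 268.07 and 106.23 in BALB (1.15, adjusted p = 0.587). It was 133.82 and 134.94 against 469.42 and 171.67 in NOD (1.07, adjusted p = 0.435) and 22.32 and 13.31 against 88.89 and 55.35 in PWK (1.96, SE 0.53, adjusted p = 0.133). None of the 4 passed limma, while DESeq2 called the region in BALB (1.46, adjusted p = 0.041) and in PWK (2.25, adjusted p = 0.0388). By a rule with thresholds from the study's methods, here for H3K27ac alone (means plus 1 that differ 2.5-fold and at least 16 normalized tags, with no test), it passed in PWK (3.89-fold) and lay just outside in BALB (2.4-fold) and NOD (2.38-fold). The same rule was met in PWK at -37.1 kb (2.5-fold) and -24.9 kb (3.67-fold), in SPRET at +46.6 kb (4.79-fold), and in C57, BALB and NOD at 0 regions, against 7.58% of all regions summed over the strains.

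At +20.7 kb the C57 strain table held 253.05 and 233.17 against 90.82 and 112.88 (log2 fold -1.25, SE 0.34, adjusted p = 0.134), while BALB held 274.1 and 233.54 against 211.6 and 84.32. PWK, with 34.33 and 71.25 against 44.45 and 53.45, and SPRET, with 226.54 and 212.7 against 273.3 and 135.69, overlapped. The share of tags inside regions was 65.416% and 59.622% in the basal C57 libraries and 43.169% and 38.208% at 24 h, and in BALB 58.629% and 51.202% against 57.138% and 28.702%. Its part in the result was not tested.

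The start region's H3K27ac was 219.13 and 270.96 against 199.48 and 252.68 in C57, 200.61 and 244.26 against 363.7 and 169.12 in BALB, 251.02 and 367.52 against 404.32 and 282.55 in NOD, and 395.81 and 414.2 against 460.2 and 318.77 in SPRET. The groups overlapped in these 4 strains. In PWK it was 60.08 and 93.96 against 121.89 and 108.8 (log2 fold 0.61), without overlap and without a call. Averaged over basal and 24 h libraries, the region with the most H3K27ac in the C57 strain table beyond 1 kb from the start was -22.4 kb (chr2:14206439-14207439), with 196.74 and 221.76 against 164.67 and 131.26 (log2 fold -0.50, adjusted p = 0.404).

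Many elements were in the tables of some strains only, such as -43.8 kb in those of BALB and NOD. The -29.6 kb region (chr2:14199262-14200262 in the C57 table) was in the tables of C57 and SPRET alone, as was +46.6 kb. At -29.6 kb PU1, STAT6 and EGR2 had peaks in SPRET and in none of the other 4 strains, while CEBPb had a peak there at 24 h in all 5. The strains' tables were made apart and this was not tested.

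**Figure D3:**
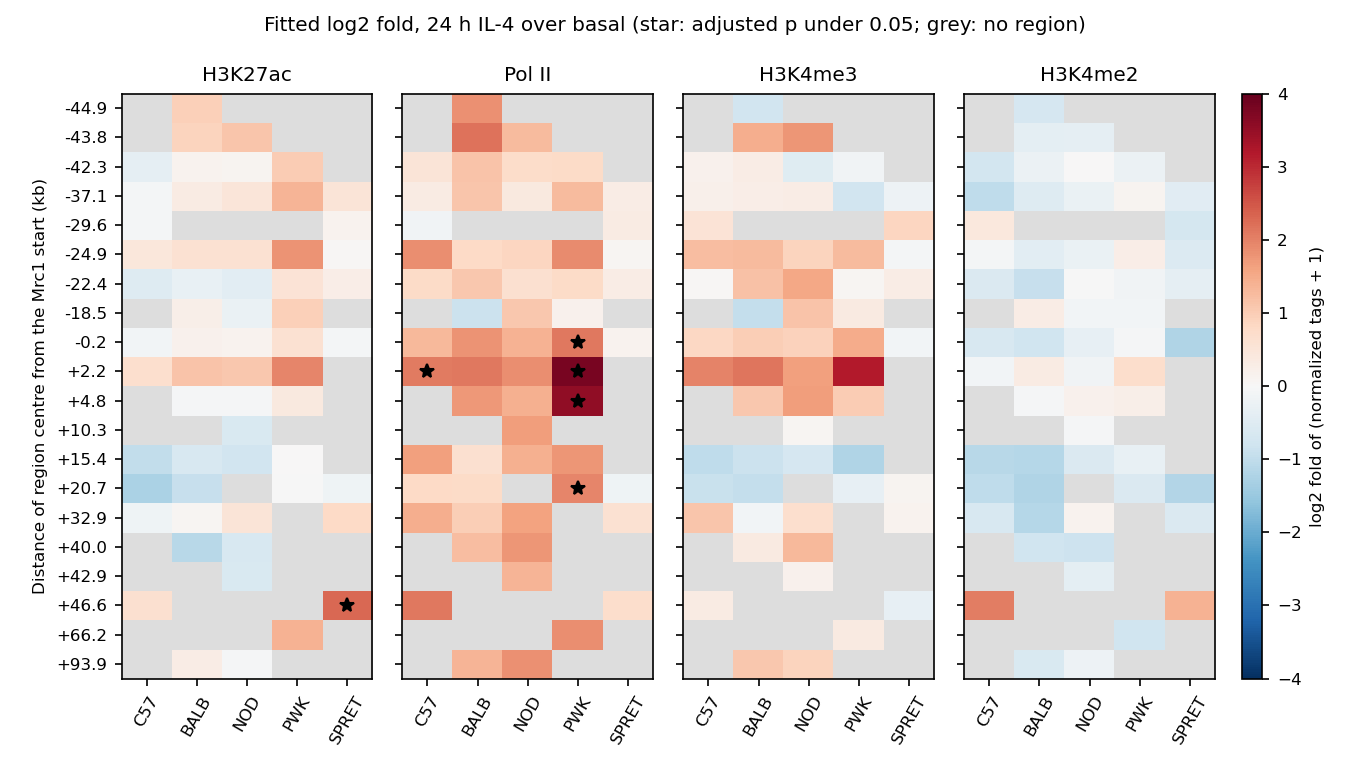
Fitted log2 fold of normalized tags plus 1 at 24 h of IL-4 over basal for H3K27ac, Pol II, H3K4me3 and H3K4me2, by region (distance from the Mrc1 start in kb) and strain, with stars at an adjusted p under 0.05 and grey where a strain's table had no region. Stars stand at 4 Pol II regions in PWK, 1 in C57 and 1 H3K27ac region in SPRET.

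H3K4me3, the promoter mark, was called at 0 of 60 regions (0.0115% of all regions summed over strains). The whole C57, BALB and SPRET tables had no H3K4me3 call, so the lack of one there says nothing about Mrc1. NOD had 14 calls over all its regions and PWK 21. In the window edgeR called 3 regions and DESeq2 2, with no shares of all regions given. The window held 2 C57, 3 BALB, 5 NOD, 3 PWK and 0 SPRET regions at an unadjusted p under 0.05. Over all regions H3K4me3 reached that p at 13232 of 67742 in C57, 3408 of 54022 in BALB and 3728 of 68932 in NOD. In PWK H3K4me3 did so at 2856 of 60175 and in SPRET at 3378 of 54755. At the start it was 89.53 and 118.48 against 167.43 and 199.76 in C57 (log2 fold 0.82, SE 0.23, adjusted p = 0.185), 68.48 and 118.77 against 171.15 and 185.06 in BALB, 101.21 and 169.87 against 267.53 and 227.68 in NOD, and 22.13 and 26.4 against 49.95 and 95.56 in PWK. In each of these 4 strains both 24 h libraries lay above both basal ones. In SPRET, with 283.65 and 262.68 against 292.69 and 217.11, they overlapped. At +2.2 kb H3K4me3 was 21.84 and 61.92 against 160.71 and 135.78 in C57 (log2 fold 1.97), 16.27 and 32.68 against 126.5 and 88.04 in BALB (2.14), 30.65 and 88.45 against 204.58 and 134.1 in NOD (1.65) and 2.29 and 1.39 against 26.58 and 22.55 in PWK (3.18, adjusted p = 0.0734). The groups did not overlap in any of the 4, and none passed limma. The +2.2 kb region was called by DESeq2 in C57 (adjusted p = 0.00919) and BALB (adjusted p = 0.000128) and by edgeR in NOD (adjusted p = 0.00552) and PWK (adjusted p = 0.0022), and the start region by edgeR in NOD (adjusted p = 0.0145).

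H3K4me2 was also called at 0 of 60 regions (0.159% of all regions), and at 0 by edgeR or DESeq2, whose shares are not given. By limma the whole SPRET table had no H3K4me2 call, so the lack of one there says nothing about Mrc1. BALB had 6 calls over all its regions. The window held 4 of 11 regions in C57 and 5 of 8 in SPRET at an unadjusted p under 0.05, and 0 in the other strains. Over all regions H3K4me2 reached that p at 23063 of 67742 in C57 and 17751 of 54755 in SPRET. At the start it was 110.26 and 100.64 against 74.32 and 60.02 in C57, 80.32 and 120.74 against 82.51 and 37.69 in BALB, 71.8 and 94.89 against 64.43 and 66.05 in NOD, 74.46 and 90.95 against 94.37 and 68.66 in PWK, and 103.49 and 106.66 against 46.15 and 43.27 in SPRET (log2 fold -1.22, SE 0.25, adjusted p = 0.0801). The 24 h libraries were below the basal ones without overlap in C57, NOD and SPRET. The median log2 fold of H3K4me2 over all regions was itself -0.69 in C57, -0.30 in NOD and -0.48 in SPRET.

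Peak lists of the factors, 1 per group and kept by the authors where replicates agreed, place the factors on these elements. PU1 had 27 basal and 32 24 h peaks in the window in C57, and 20 to 30 and 14 to 32 in the other strains, while CEBPb had 12 and 18 in C57. At -37.1 kb PU1, CEBPb and STAT6 each had a peak in all 5 strains both basal and at 24 h, and PPARg at 24 h in all 5. The -22.4 kb element held PU1 and STAT6 peaks in all 5 strains in both conditions.

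Basal STAT6 peaks in the window numbered 17 in C57, 13 in NOD, 13 in SPRET, 6 in BALB and 5 in PWK. The whole basal lists held 30589, 20653, 28212, 11486 and 14022 peaks in that order. Whether the window counts differ beyond list size was not tested. In C57 the window then held 19 at 1 h, 16 at 6 h and 18 at 24 h, from lists of 24376, 23884 and 39537 peaks. Of the 18 at 24 h, 4 had no basal peak, against 41.2% of the C57 list. BALB had 7 of 13 without a basal peak (51.5% of its list), NOD 7 of 16 (39.5%), PWK 9 of 14 (67.2%) and SPRET 10 of 19 (44.4%). At +2.2 kb STAT6 had a basal peak in SPRET alone, peaks at 1 h and 6 h in C57, and peaks at 24 h in BALB, C57, NOD and PWK. The +46.6 kb element had no basal STAT6 peak in any strain, peaks at 1 h and 6 h in C57, and peaks at 24 h in C57, NOD, PWK and SPRET. At +20.7 kb C57 had a basal STAT6 peak and none at 1, 6 or 24 h, while BALB, PWK and SPRET had 1 at both times.

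PPARg had more peaks in the window at 24 h than without IL-4 in each strain. C57 had 2 basal and 17 24 h peaks in the window, of which 16 had no basal peak (84.0% of the list's 24 h peaks), and BALB had 2 basal and 10 24 h peaks, NOD 6 and 16, PWK 6 and 12 and SPRET 10 and 13. Peaks at 24 h with no basal peak were 9 of 10 for BALB (78.9% of its list), 12 of 16 for NOD (74.3%), 6 of 12 for PWK (70.0%) and 7 of 13 for SPRET (38.9%). Lists differ in size with depth and enrichment, so these counts are not compared by a test.

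**Figure D4:**
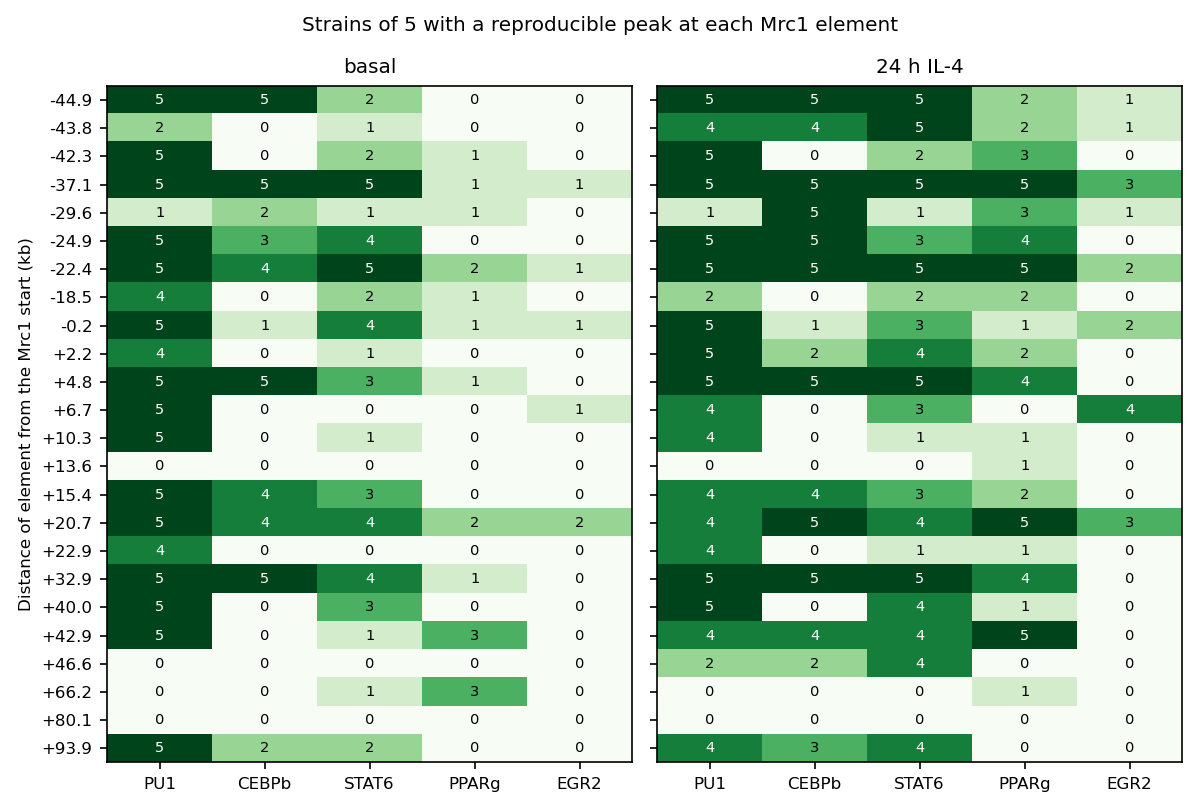
Number of strains, of 5, with a reproducible peak of PU1, CEBPb, STAT6, PPARg or EGR2 at each of the 24 Mrc1 elements (rows, distance from the start in kb), basal (left) and after 24 h of IL-4 (right). STAT6 goes from 1 strain to 4 at +2.2 kb and from 0 to 4 at +46.6 kb, and PU1 is in 5 strains at the start in both conditions.

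EGR2 was followed in C57 at 7 sites of the window. The C57 lists held 0 EGR2 peaks in the window without IL-4, 1 at 1 h (-37.1 kb), 1 at 6 h (-22.4 kb) and 7 at 24 h. All 7 had no basal peak, against 72.5% of the 24 h EGR2 peaks of the C57 list. BALB had 3 basal and 6 24 h peaks, NOD 3 and 1, PWK 0 and 0, and SPRET 0 and 6. The whole lists changed size too, from 28842 basal to 37104 24 h peaks for BALB and from 25341 to 16604 for NOD. The PWK list grew from 6201 to 14919 peaks, that of SPRET from 12301 to 39458. For BALB 4 of the 6 24 h peaks had no basal peak (36.3% of its list), for NOD 0 of 1 (11.1%). SPRET had 6 of 6 (72.6%), while the share over the PWK list was 67.4%. Whether the window counts differ beyond list size was not tested. At +6.7 kb, in an Mrc1 intron with an EGR2 match and no open region in the histone tables, the 24 h lists of BALB, C57, NOD and SPRET each had a peak, and NOD also had a basal one.

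The tags at these sites did not pass a test. Of the 7 sites 0 were called at 1 h, 6 h or 24 h, against 0% of all sites at each time (1085, 1169 and 1038 sites had an unadjusted p under 0.05), and count tests were not run for this factor. At -43.8 kb (chr2:14185469-14185669) EGR2 was 10.3 and 5.37 normalized tags in basal libraries, 3.61 and 16.39 at 1 h, 13.97 and 31.58 at 6 h, and 32.32 and 29.76 at 24 h (log2 fold 1.92, SE 0.89, adjusted p = 0.838). It was the 1 site with an unadjusted p under 0.05, and its 6 h and 24 h libraries lay above the basal ones. At -37.1 kb (chr2:14192118-14192328) the values were 29.97 and 25.52, then 8.13 and 47.26, 19.2 and 79.45, and 45.33 and 81.6 (24 h log2 fold 1.11). At +20.7 kb (chr2:14249871-14250111) they were 29.5 and 32.23, then 14.45 and 16.39, 17.46 and 41.25, and 33.21 and 31.68, which overlap between basal and 24 h.

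Of the remaining sites, -44.9 kb (chr2:14184413-14184657) held 12.64 and 14.77 in basal libraries and 20.65 and 21.12 at 24 h. The +6.7 kb site (chr2:14235981-14236246) held 11.24 and 8.06 against 15.71 and 18.24. At both, the 24 h libraries were above the basal ones. The -22.4 kb site (chr2:14206886-14207170), with 30.91 and 17.46 against 38.15 and 21.12, and the -0.2 kb site (chr2:14229164-14229401), with 24.82 and 9.4 against 30.07 and 19.2, overlapped. The median log2 fold at 24 h was 0.61 over the 7 sites and 0.66 over all sites, and the share of tags inside sites was 10.766% and 14.155% in basal libraries, 5.376% and 13.113% at 1 h, and 22.026% and 15.998% at 24 h.

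Deletion of Egr2 in myeloid cells asked which of these changes needed EGR2, and 2 sites of the window, -43.8 and -37.1 kb, had values in both genotypes. The values cover only 4677 sites around EGR2 peaks induced by 24 h of IL-4, and shares of all sites below are of these. The Mrc1 start and +2.2 kb were not among them. EGR2 itself was not measured by ChIP-seq in these mice, so the deletion could not be checked here. The test of H3K27ac with IL-4 in each genotype was added after the data were seen. It called 28.1% of all sites in either direction in Egr2flfl (1196 sites higher) and 18.5% in LyzMCreEgr2flfl (673 sites higher). At both sites of the window H3K27ac rose with IL-4 in both genotypes. At -43.8 kb (chr2:14185069-14186069) it went from 48.57 and 72.63 to 171.87 and 145.15 in Egr2flfl (log2 fold 1.40, SE 0.27, adjusted p = 0.00131), and from 45.13 and 75.67 to 153.77 and 193.27 in LyzMCreEgr2flfl (1.54, adjusted p = 0.000678). At -37.1 kb (chr2:14191723-14192723) it went from 63.91 and 57.02 to 142.72 and 134.23 (1.18, SE 0.21, adjusted p = 0.000582), and from 69.2 and 72.87 to 193.25 and 211.84 (1.5, adjusted p = 7.59e-05). No 24 h library overlapped a basal one.

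Between the genotypes at 24 h, 0 of 12 tests (6 targets at 2 sites) were called, against 8.58% of all, and for the interaction of genotype and IL-4 0 of 12, against 0.00713%. At an unadjusted p under 0.05 the count was 1 and 0, against 6538 and 2652 of all 28062 tests. That 1 was H3K27ac at -37.1 kb, higher in LyzMCreEgr2flfl by a log2 fold of 0.54 (SE 0.21, adjusted p = 0.0702) with no overlap of the libraries, where the median of all sites was -0.505. It was called with a replicate block (adjusted p = 0.0202) and under median-ratio scaling (log2 fold 1.08, adjusted p = 0.0026). Its interaction log2 fold was 0.31 (adjusted p = 0.695). At -43.8 kb the genotypes differed by 0.13 (adjusted p = 0.779).

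STAT6 at -37.1 kb went from 13.4 and 11.97 to 44.82 and 57.54 in Egr2flfl (log2 fold 1.92, SE 0.56, adjusted p = 0.0265, against 11.8% of all sites called), and from 25.63 and 6.42 to 23.71 and 23.66 in LyzMCreEgr2flfl (0.81, adjusted p = 0.736, against 1.2%). The difference between these changes did not pass its own test (interaction log2 fold -1.11, adjusted p = 0.707), nor did the genotypes at 24 h (-1.07, adjusted p = 0.357), where the median of all sites was -0.79. The call in Egr2flfl was lost with edgeR, with DESeq2, under median-ratio scaling, and without any 1 of its libraries. At -43.8 kb STAT6 went from 2.06 and 5.98 to 12.45 and 20.36 (1.87, adjusted p = 0.0642) and from 2.23 and 3.67 to 11.34 and 7.89 (1.43, adjusted p = 0.437).

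PPARg at -37.1 kb was 17.32 and 0 in basal and 40.96 and 33.09 in 24 h libraries of Egr2flfl, and 2.13 and 0 against 6.95 and 0 in LyzMCreEgr2flfl. The 24 h libraries of the genotypes did not overlap, and the difference did not pass the test (log2 fold -3.75, SE 1.73, adjusted p = 0.378). None of the 4677 sites passed for PPARg, so the lack of a call says nothing about this site. The median log2 fold of PPARg over all sites was -1.28, and -0.589 under median-ratio scaling. PU1 at -37.1 kb was 89.96 and 95.18 against 105.81 and 107.06 at 24 h (log2 fold 0.20, adjusted p = 0.487), and edgeR called this difference (0.51, adjusted p = 0.0265). CEBPb there was 217.1 and 162.47 against 127.56 and 136.18. Over all sites the median log2 fold of CEBPb was -1.14, and -0.222 under median-ratio scaling. H3K4me2 ran from 24.7 to 43.79 at this site over all 8 libraries. Pol II had 1 library a group with a label, which allows no test, and at -43.8 kb it went from 10.01 to 30.63 in Egr2flfl and from 3.25 to 37.26 in LyzMCreEgr2flfl.

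**Figure D5:**
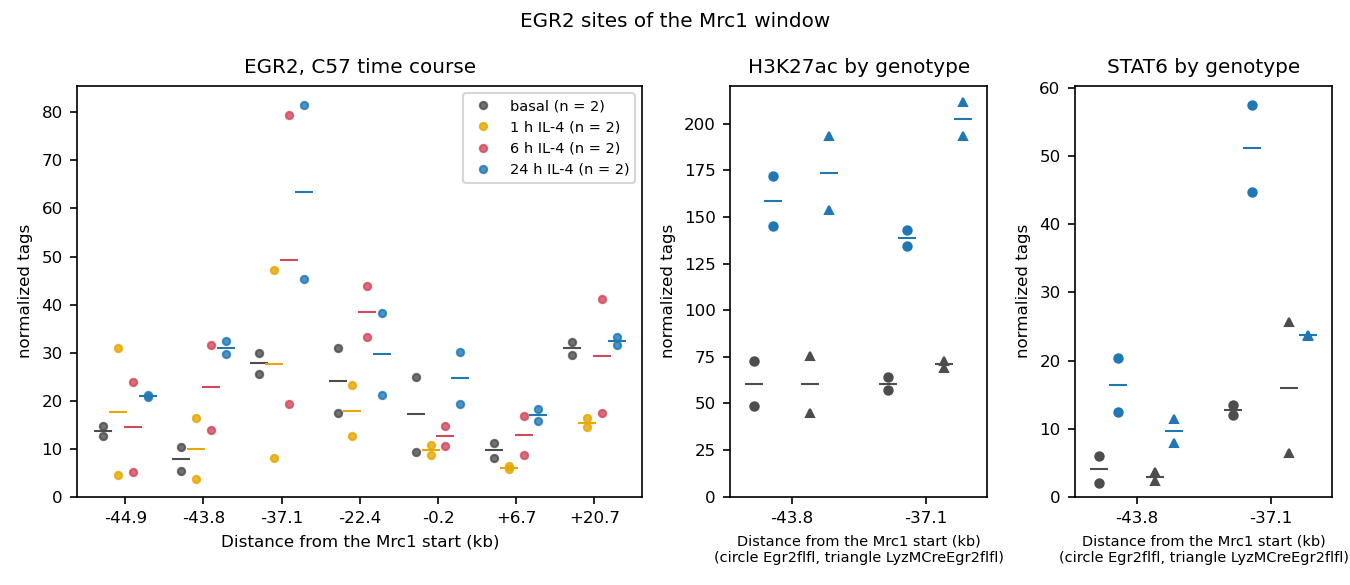
Normalized tags of EGR2 at the 7 sites of the window in the C57 time course (left), and of H3K27ac (middle) and STAT6 (right) at the -43.8 and -37.1 kb sites in Egr2flfl (circles) and LyzMCreEgr2flfl (triangles), basal in grey and 24 h IL-4 in blue, with dashes at group means. H3K27ac at -37.1 kb reaches 142.72 in Egr2flfl and 211.84 in LyzMCreEgr2flfl at 24 h, and STAT6 there 57.54 and 23.71.

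Among the mannose receptor family, Mrc1 was the 1 member called in any Pol II or H3K27ac comparison of the start regions, in PWK, where 2 of the 4 genes had a region. The others were Mrc2, Pla2r1 and Ly75, which encode related receptors with C-type lectin domains. In the C57 time course the basal Pol II means at the start regions, each 1000 bp wide, were 133.32 for Mrc1, 35.8 for Ly75, 7.79 for Mrc2 and 2.6 for Pla2r1. Of 20 genes known as markers of IL-4-activated macrophages, chosen for that name, Pol II at the start rose at 24 h in 4 of the 15 with a region in the C57 time course (0.677% of all regions called), 2 of 13 in the C57 strain table (0.319%), and 4 of 14 BALB (0.707%), 0 of 14 NOD (0%), 4 of 13 PWK (1.72%) and 6 of 15 SPRET genes (1.05%), and fell in none. The 4 in the time course were Mgl2, a lectin (log2 fold 2.55), Pdcd1lg2, a ligand of the PD-1 receptor (4.1), Slc7a2, an arginine transporter (3.72), and Irf4, a transcription factor (1.53). The start region of Mrc1 was not called by limma in that comparison (1.31, adjusted p = 0.175), and was by DESeq2 (1.38, adjusted p = 0.0131).

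Over the 8 H3K27ac libraries of the time course, the start regions whose log2 values went most like that of Mrc1 among 9859 genes were those of Ints1 (Pearson r = 0.9912), Pigs (0.9803), Polrmt (0.9743), Fzd7 (0.9739) and Btbd19 (0.9732). All genes share the depth of a library and its share of tags inside regions. Between the libraries these ran from 11780899 to 29050468 tags and from 20.541% to 69.717%. Their part in the ranking was not tested, and the ranking is a description with no test.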

How the data were processed

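ChIP-seq was done in BMDMs, and groups came from the sample labels by target, strain or Egr2 genotype, and time with IL-4. Of 267 samples, 155 libraries entered through tables and the rest only through their group's peak list or not at all. Reads had been aligned by the authors with Bowtie2, to the genome of the strain they came from, then moved to mm10 positions and stored as HOMER tag directories. Signal values, as deposited, count HOMER tags in 1000 bp around region centres (within the peak for the EGR2 time course, in 300 bp for the factors of the Egr2 genotypes), and the authors put each library on a scale of 10000000 tags. Reproducible peaks were called by the authors per group with IDR (irreproducible discovery rate), and the deposited score of a peak was used only to rank peaks within a list. In 163 of 166 columns the low values (up to 50 reads) were whole reads within 0.05 read for 100.0% of values, so reads were recovered there for count tests; the other 3 columns (EGR2 at 24 h, H3K27ac of both genotypes) were kept out of them. A further 4 value columns of Pol II in the genotypes matched no sample and were not used. Sequences shown are RefSeq and GRCm38.p6 reference.

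Tests used limma 3.58.1 (R 4.3.3), with lmFit and a trended eBayes, on log2 of normalized tags plus 1, with no filter, and a fold on this scale understates the change of low regions. All groups of a target in a table shared one fit, and p-values were adjusted by Benjamini-Hochberg over all its regions with a threshold of 0.05. The fit was tested on simulated data. It found none of the changes put into H3K27ac of the C57 strain table and none of the smaller ones put into Pol II of NOD. It also missed most of the smaller changes put into H3K27ac of the other strains and of the time course, and into EGR2. A count of 0 in any of these fits is no sign of stability. Libraries are biological replicates per the study's methods, which do not say which shared a mouse, so p-values measure the spread between these libraries. Alternatives were median-ratio scaling, a pseudocount of 5, a minimum of 16 normalized tags (8 for Pol II and factors), edgeR 4.0.16, DESeq2 1.42.0, a replicate block, each library left out and a 25 kb window. Libraries with the same number were taken as paired where at least 3 pairs all correlated above 0.1 in their deviations from the group means. This held for Pol II in C57 (0.118, 0.240 and 0.207), the C57 time course at 24 h (0.109, 0.226 and 0.192), PWK (0.469, 0.201 and 0.282) and SPRET (0.310, 0.258 and 0.224), and the blocked count in SPRET was 0. In both C57 sets basal library 1 correlated more with a 24 h library of another number than with 24 h library 1. Regions named with full values were the one at the Mrc1 start, the one with the most C57 H3K27ac beyond 1 kb, those with the largest C57 H3K27ac differences, every region called and every EGR2 site, and others named beside them were chosen after their values were seen. The window, the gene and marker lists and the tests were chosen with earlier results of these data known. Of the other marker lists, neutrophil (1 of 3 genes with a region) summed to 19.25 and 55.63 normalized tags of H3K27ac in basal C57 libraries, dendritic cell (2 of 2) to 2.04 and 4.99, fibroblast (1 of 2) to 0 and 0.71, and endothelial cell (1 of 2) to 34.23 and 143.83. Tags from the columns were combined in Python 3.11.15.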

Additional observations from a re-analysis of the deposited data

Results flagged for a closer look

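Among 31 groups of 4 libraries tested for a library far from the others, 5 passed Dixon's 95% critical value of 0.829, all of them basal Pol II of C57, where chance passes about 1 group in 20. In the time course the gap divided by the range was 0.834 at -0.2 kb, 0.89 at +4.8 kb, 0.859 at +32.9 kb and 0.831 at +80.1 kb, and in the strain table, which shares these libraries, it was 0.847 at +32.9 kb. At +4.8 kb the 4 basal libraries held 19.97, 65.8, 64.85 and 60.76 normalized tags, so that library 1 lay apart at the low end, and at -0.2 kb they held 112.31, 98.7, 205.8 and 116.45, with library 3 apart at the high end.

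In 6 of 324 pairs of strains at 1 region and mark, all libraries of one strain moved one way with IL-4 and all of the other the opposite way, and these differences were not tested. Such opposite moves also arise by chance with 2 libraries a group, and the number due to chance was not computed. With 2 libraries a group, the log2 fold of the first strain minus that of the second was -1.03 for H3K4me3 at +20.7 kb between C57 and SPRET and -1.03 between BALB and SPRET. It was -2.1 for H3K4me3 at -18.5 kb between BALB and NOD, and 0.54 at -37.1 kb between NOD and SPRET. For H3K4me2 it was 0.81 at -24.9 kb between PWK and SPRET and 1.17 at -29.6 kb between C57 and SPRET. Some of these values were low or close. H3K4me3 at -18.5 kb was 0.68 and 1.26 basal against 0 and 0 in BALB, and 0.71 and 1.4 against 2.78 and 4.19 in NOD. At -37.1 kb it was 7.64 and 6.37 against 5.96 and 5.82 in SPRET, and 6.41 and 5.62 against 6.48 and 9.08 in NOD.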

How the results depend on the processing

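Most counts of called regions in the window moved with the processing, and the causes were not tested. Shares of all regions called under these alternatives are not given, so their counts alone are not a result about Mrc1. With a replicate block, H3K27ac calls at 24 h were 4 in C57, 2 in NOD and 3 in PWK, and 4 at 6 h of the time course, Pol II calls 10 in NOD, 7 in PWK and 10, 9 and 10 at 1, 6 and 24 h, H3K4me2 3, H3K4me3 7, genotype 1 and STAT6 in Egr2flfl 2. Except for Pol II in C57, PWK, SPRET and the time course at 24 h, no group had the 3 pairs needed to be taken as paired. Same-number libraries correlated in some of these, as in H3K27ac of C57 (0.47), BALB (0.435), NOD (0.492) and PWK (0.441) and Pol II of NOD (0.368). Others were lower, such as H3K4me3 of NOD (0.009). With 2 libraries a group both pairs give the same value. The block changed no other count by over 1.5 times. DESeq2 gave H3K27ac 1 in BALB, 1 in PWK and 3 at 6 h, Pol II 5 in C57, 1 in BALB, 2 in NOD and 13, 11 and 12 in the time course, H3K4me3 2 and STAT6 in Egr2flfl 0. edgeR gave Pol II 1 in BALB and 13, 6 and 3 in the time course, H3K27ac 0 at 1 h and 2 at 6 h, H3K4me3 3, genotype 1 (H3K27ac left out) and STAT6 in Egr2flfl 0. Median-ratio scaling gave H3K27ac 0 in SPRET, 0 at 1 h and 2 at 6 h, Pol II 8, 5 and 3, H3K4me3 1, genotype 1 and STAT6 in Egr2flfl 0. The filter gave Pol II 1 in BALB and 1 at 1 h, H3K4me3 3 and STAT6 in Egr2flfl 2, and a pseudocount of 5 gave Pol II 1 at 1 h, H3K4me3 1 and STAT6 in Egr2flfl 2. A 25 kb window left 0 genotype sites for H3K27ac or STAT6 and 4 EGR2 peaks without a basal peak, the better-ranked peaks left 1, and a 2-fold rule gave 9 regions against 4. With 1 library left out, calls ran from 0 to 2 for H3K27ac at 1 h, 0 to 5 at 6 h, 0 to 1 in BALB, 0 to 1 in PWK and 0 to 0 in SPRET, 0 to 8, 0 to 7 and 0 to 6 for Pol II at 1, 6 and 24 h, 0 to 2 in C57 and 2 to 4 in PWK, 0 to 11 for H3K4me2, 0 to 1 for H3K4me3, 3 to 10 for the fold rule and 0 to 1 for STAT6 in Egr2flfl. H3K27ac at the start, uncalled throughout, was the value that changed sign: edgeR and DESeq2 gave 0.0076 and 0.0114 at 1 h, and median-ratio, edgeR and DESeq2 gave 0.227, 0.199 and 0.2301 in C57, 0.1883, 0.1809 and 0.1862 at 24 h of the time course and 0.0061, 0.0177 and 0.0153 in SPRET, and left-out libraries gave -0.3864 to 0.7138 in BALB, -0.2874 to 0.0521 in C57, -0.2768 to 0.0217 at 24 h of the time course, -0.1204 to 0.4278 in NOD, -0.3441 to 0.1843 in SPRET and -0.1374 to 0.1611 at 6 h. Count tests were not run for the EGR2 time course or for H3K27ac of the genotypes, and the lowest regions rest on few reads.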
